A study of Mus musculus with 18 samples.

Results

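The genes described here are 10 stress response genes, the transcription factor gene Atf4 and genes commonly read as targets or partners of its product: Atf4, Ddit3, Asns, Psat1, Phgdh, Trib3, Chac1, Ddit4, Sesn2 and Nupr1. They were chosen by gene symbol out of the 18909 genes in the deposited table, each symbol matched 1 row, and all 10 passed the filter on low values in every fit. RNA was sequenced from cultured mouse tumour cells of C57BL6 origin in 18 libraries, 3 in each of 6 groups. The groups were E0771 mammary tumour cells with pRetrox vectors for MRTFA, for MRTFB or as the pRetrox control, and B16F10 melanoma cells with MRTFA, with MRTFB or as the pRetrox control. All groups, controls included, received doxycycline at 500 ng/mL for 48 h, so the drug is shared by every comparison. The proteins MRTFA and MRTFB work as coactivators of the transcription factor SRF (serum response factor), which drives genes of the actin cytoskeleton. The labels do not say whether a line was 1 clone, which promoter the vector holds, or whether the replicates were separate cultures, so p-values measure only the spread between these libraries.

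ATF4 is the effector of the integrated stress response. Kinases that sense amino acid shortage, unfolded proteins, haem shortage or viral RNA phosphorylate the initiation factor eIF2alpha, most translation then slows, and the Atf4 mRNA is translated more. Because the main control of ATF4 is translational, Atf4 mRNA is not a measure of ATF4 protein. ATF4 dimerises with other bZIP proteins and binds sites known as CARE (C/EBP-ATF response elements) in genes for amino acid supply, redox balance, feedback and cell death. Tumour cells use this programme to make serine, glycine and asparagine. Several members also answer to other inputs: Ddit4 is a known target of hypoxia, p53 and glucocorticoid signalling, and Sesn2 of p53 and NRF2.

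The promoter sequences of the members show which of them carry the core of the ATF4 element close to the start of transcription. The core was searched as TGATGNAA on both strands in RefSeq promoters (build GRCm38.p6), which run from 250 bases before to 50 bases after the annotated start. All 10 members had a window, Psat1 had 2, and the core was found in 4 of these 11 windows, against 3.97% of all 32851 promoter windows. The 4 sites are shown with 20 bases on each side, in the direction of the gene, with the core or its reverse complement in capitals.
Asns, chr6:7693205-7693252, minus strand: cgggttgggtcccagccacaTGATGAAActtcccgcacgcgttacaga
Chac1, chr2:119351029-119351076, plus strand: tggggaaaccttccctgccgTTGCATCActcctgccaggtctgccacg
Trib3, chr2:152344019-152344066, minus strand: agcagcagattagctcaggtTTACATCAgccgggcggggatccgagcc
Nupr1, chr7:126625553-126625600, minus strand: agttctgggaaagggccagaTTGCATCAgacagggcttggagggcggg
The Asns core, on the gene's own strand, begins 23 bases before the start. The Chac1 core lies 193 bases before, the Nupr1 core 110 bases before and the Trib3 core 14 bases after the start, all on the opposite strand. Chac1 and Nupr1 share the same 8 letters. No core was found in the windows of Atf4, Ddit3, Ddit4, Psat1, Phgdh or Sesn2, which says only that these letters are not in these windows. The CArG box, the element bound by serum response factor, was found in 1.63% of all windows and in 0 of the 11 member windows, and the cAMP response element TGACGTCA in 1.79% of all windows and in 0 member windows.

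Values are the authors' scaled reads, that is reads per gene divided by a size factor for the library, and are given for replicates 1, 2 and 3 in that order or as mean ± SD (n = 3). Differences are log2 differences fitted by limma to log2(scaled reads + 1), with their SE, and genes with an adjusted p under 0.05 (Benjamini-Hochberg, over all genes tested) were called. Depth was 27607055 to 37116655 reads per library. In E0771, Mkl1, the older symbol of Mrtfa, had 12469, 16557 and 12160 scaled reads in MRTFA libraries, against 1124, 1514 and 1408 in control libraries. In B16F10 it had 1398, 902 and 1314 in MRTFA libraries, against 1109, 987 and 949.7 in control libraries, so the transgene was not visible in that gene's reads there. Acta2, the smooth muscle actin that MRTF proteins activate, had 37313 to 72885 in B16F10 MRTFA libraries, against 176 to 798 in B16F10 control libraries, and 675541 to 813607 in E0771 MRTFA libraries, against 16568 to 23963 in E0771 control libraries. In E0771 MRTFB libraries Acta2 had 59670 to 79723. Mkl2, the older symbol of Mrtfb, had 2056 to 2211 in E0771 MRTFB libraries, against 1235 to 1446 in E0771 control libraries, and 1738 to 1964 in B16F10 MRTFB libraries, against 1290 to 1881 in B16F10 control libraries. The library B16F10 MRTFB replicate 3 stood apart, with 28018 scaled reads of Acta2, against 3856 and 2146 in the other replicates of its group, and no member was called in a B16F10 comparison with MRTFB with or without it. The 7 melanocyte markers summed to 369 to 636 in E0771 libraries and 561637 to 757748 in B16F10 libraries. Of 7 mammary epithelial markers 5 were in the table, summing to 5820 to 17027 in E0771 and 18.1 to 156 in B16F10, and nearly all of the E0771 sum was Krt8, a keratin. Epcam averaged 42.1 ± 23.5 in E0771 control libraries and was at 0 in B16F10 control libraries, Krt19 was at or below 0.934 in every control library of both lines, and the cadherin Cdh1 averaged 4.57 ± 0.498 in E0771 control and 56 ± 24.8 in B16F10 control libraries, so these 3 were low in E0771 control cells.

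In E0771 cells, MRTFA moved 3 of the 10 members: Nupr1 rose, and Ddit4 and Psat1 fell. Over all genes in this comparison 38.4% were called, 20.3% higher and 18.1% lower, so the members' count is no larger a share than that background. With reads scaled by library size instead, the calls over all genes were 2356 higher and 3282 lower, against 2677 higher and 2387 lower as deposited. The median log2 difference was −0.17 over the members and −0.02 over all genes tested. Members with and without the ATF4 core in their promoter are found both among those that moved and among those that did not.

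**Figure D1:**
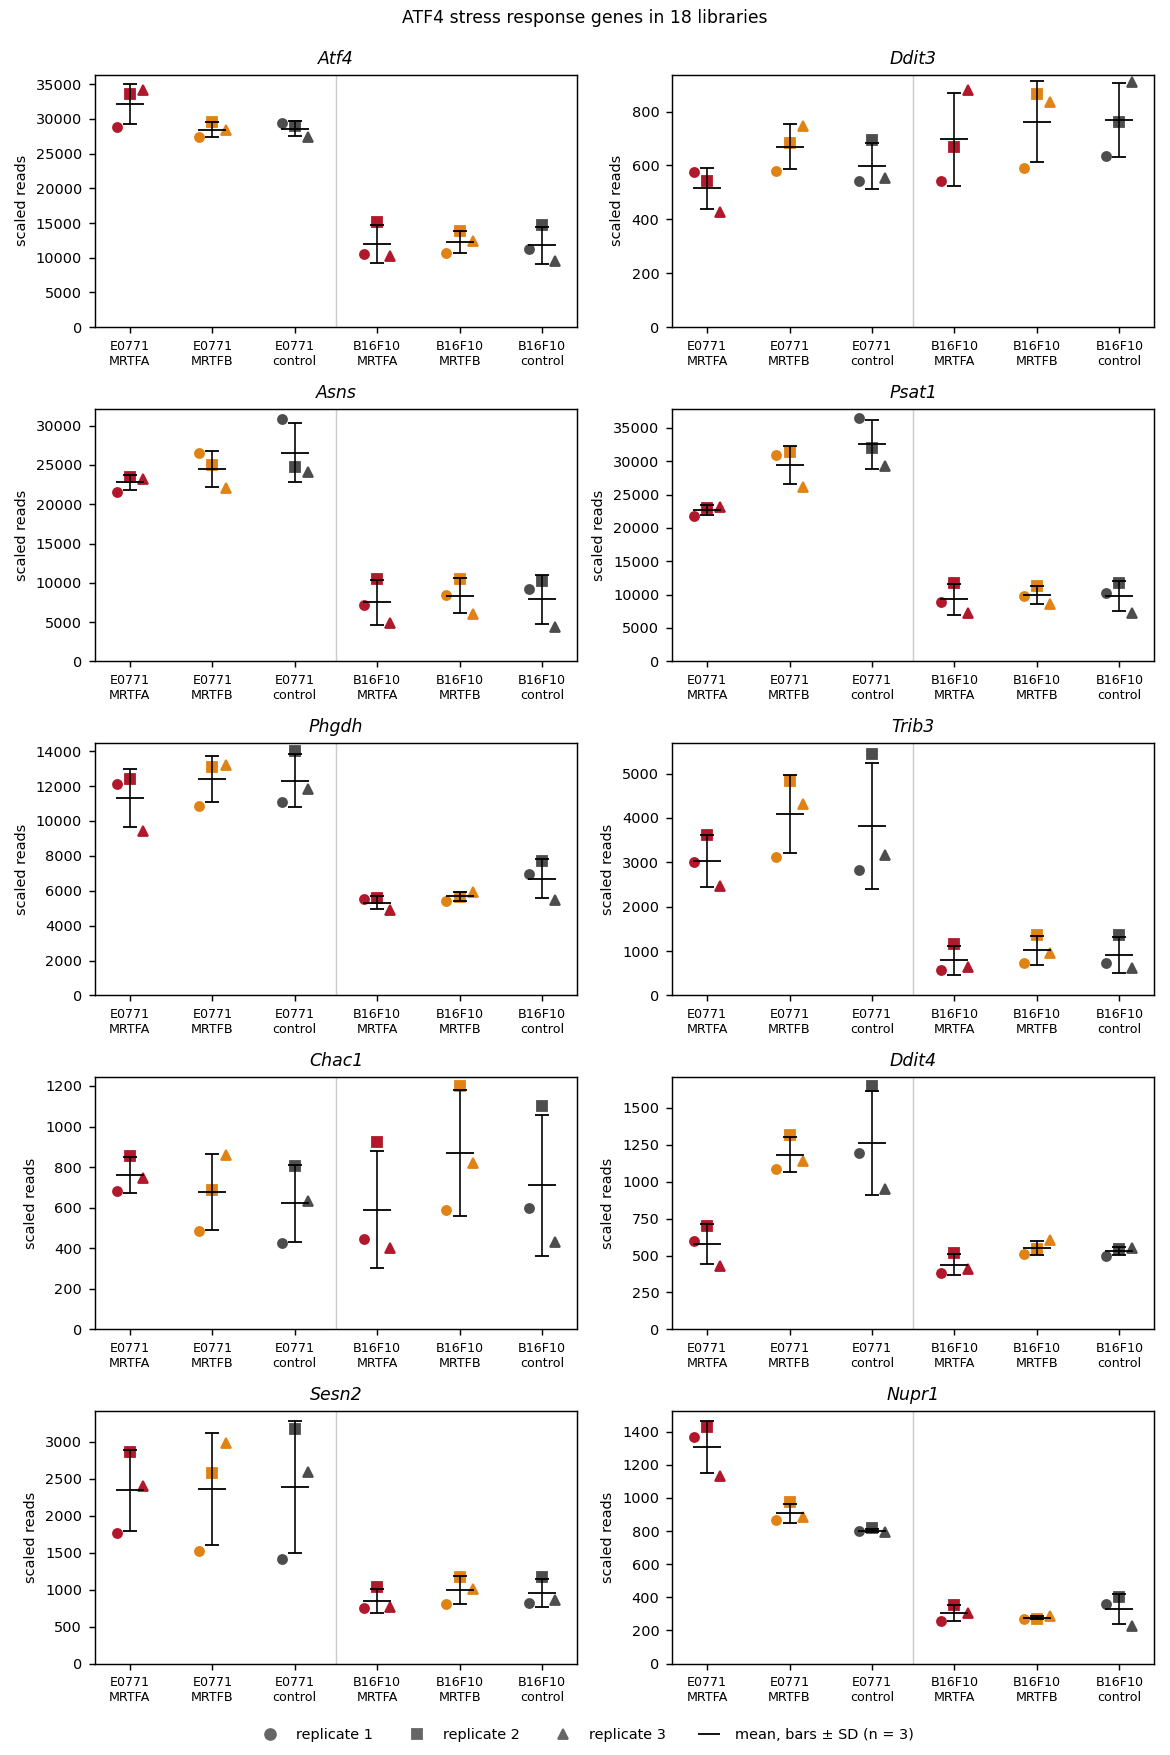
Scaled reads (vertical axis, from 0) of the 10 ATF4 stress response genes in each library of the 6 groups (horizontal axis), with circles, squares and triangles for replicates 1, 2 and 3 and the mean ± SD of each group. Nupr1 is highest and Ddit4 and Psat1 are lowest in the E0771 MRTFA libraries among the E0771 groups, while 8 of the 10 genes sit higher in E0771 control than in B16F10 control libraries.

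Ddit4 (GENCODE M21, chr10:59949669-59951834, minus strand) encodes REDD1, an inhibitor of mTORC1 that stress, hypoxia and glucocorticoids induce. It had 601, 698 and 432 scaled reads in E0771 MRTFA libraries, against 1193, 1644 and 947 in E0771 control libraries. Every MRTFA library lay below every control library, and the mean with MRTFA was 0.457 times that of control. The log2 difference was −1.12 (SE 0.21, limma adjusted p = 0.00217), with a 95% interval from −1.59 to −0.65. The Ddit4, Psat1 and Nupr1 calls held under each alternative and without each single library.

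Psat1, phosphoserine aminotransferase, and Phgdh, phosphoglycerate dehydrogenase, are enzymes of the serine synthesis pathway, Phgdh (chr3:98313170-98339990, minus strand) at its first step and Psat1 (chr19:15904678-15947337, minus strand) at the next. A pseudogene of Phgdh is annotated and is not in the table, so reads shared with it are uncertain. Psat1 had 21805, 23022 and 23197 scaled reads in E0771 MRTFA libraries, against 36416, 31929 and 29243 in E0771 control libraries, and the groups did not overlap. Its log2 difference was −0.52 (SE 0.11, limma adjusted p = 0.00325), a ratio of means of 0.697. Phgdh had 12100, 12415 and 9412 with MRTFA, against 11095, 14030 and 11809 in control, and these groups overlapped (−0.13, 95% interval −0.42 to 0.17, limma adjusted p = 0.485). Psph, the last enzyme of the pathway and not a member, had 3257 ± 415 with MRTFA, against 3720 ± 319 in control (−0.20, limma adjusted p = 0.164). The call in this pathway was thus on Psat1 alone of the 3 enzymes, and whether the 3 differ from one another was not tested.

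Nupr1 (chr7:126623249-126630861, minus strand) encodes a small stress-induced chromatin protein. It had 1365, 1427 and 1131 scaled reads in E0771 MRTFA libraries, against 800.5, 816 and 793 in E0771 control libraries. All MRTFA libraries were above all control libraries, whose coefficient of variation was 1.45%. The log2 difference was 0.69 (SE 0.11, limma adjusted p = 0.000576), with a 95% interval from 0.46 to 0.93 and a ratio of means of 1.63.

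The promoters of these 3 genes are shown because they moved in opposite directions. The Nupr1 window holds the ATF4 core, in capitals.
Nupr1, chr7:126625421-126625720, minus strand: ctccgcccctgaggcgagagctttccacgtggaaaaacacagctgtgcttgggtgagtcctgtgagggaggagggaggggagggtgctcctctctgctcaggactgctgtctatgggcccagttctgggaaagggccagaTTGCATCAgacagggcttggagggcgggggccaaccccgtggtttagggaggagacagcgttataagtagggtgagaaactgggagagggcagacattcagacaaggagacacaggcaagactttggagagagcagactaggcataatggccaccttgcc
The Ddit4 and Psat1 windows hold no such core, and the capitals in them mark the CCAAT box, read as CCAAT on either strand, which 37.4% of all windows hold. The box was found in 7 of the 11 member windows, so it is not particular to these genes. Windows of Atf4, Ddit3, Phgdh, Chac1 and Sesn2, which were not called in E0771 MRTFA cells, hold it too.
Ddit4, chr10:59951721-59952020, minus strand: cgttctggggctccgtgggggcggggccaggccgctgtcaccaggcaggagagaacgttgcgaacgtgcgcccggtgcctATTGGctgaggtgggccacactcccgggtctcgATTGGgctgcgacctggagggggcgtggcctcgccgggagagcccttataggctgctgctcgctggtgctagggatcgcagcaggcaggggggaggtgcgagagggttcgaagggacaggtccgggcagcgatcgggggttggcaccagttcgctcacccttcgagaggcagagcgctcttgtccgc
Psat1, chr19:15925010-15925309, minus strand: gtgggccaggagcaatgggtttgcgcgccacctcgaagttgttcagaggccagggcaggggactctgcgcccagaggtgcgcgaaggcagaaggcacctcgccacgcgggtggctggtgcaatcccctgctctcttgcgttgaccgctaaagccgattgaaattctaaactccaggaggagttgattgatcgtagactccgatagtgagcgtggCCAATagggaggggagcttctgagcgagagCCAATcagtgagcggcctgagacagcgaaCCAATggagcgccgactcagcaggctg
The Psat1 window is the one of the 2 RefSeq starts whose letters include CCAAT boxes. None of these 3 windows holds a CArG box.

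The other 7 members were not called in E0771 MRTFA cells. Atf4 had 28833, 33577 and 34144 scaled reads with MRTFA, against 29430, 29029 and 27376 in control. Only replicate 1 with MRTFA overlapped the controls (0.17, SE 0.09, limma adjusted p = 0.169), and without that library the difference was 0.24 with an adjusted p of 0.0482. Asns, asparagine synthetase, had 21606, 23442 and 23263 with MRTFA, against 30854, 24739 and 24099 in control. All its MRTFA values lay below all its control values, but the difference of −0.21 (SE 0.11) missed the threshold (limma adjusted p = 0.157). It passed with library-size scaling, at −0.30 (adjusted p = 0.0403), a scaling that moved the median of all genes to −0.11.

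Ddit3 encodes CHOP, the bZIP factor linked to stress-induced cell death. Its level was 575, 542 and 429 scaled reads with MRTFA, against 544, 696 and 554 in control (−0.22, limma adjusted p = 0.304). Exons of Mars and of a second Ddit3 gene model overlap the Ddit3 locus, and the labels do not give the strandedness of the counting, so Ddit3 values are uncertain throughout. Trib3, a pseudokinase that feeds back on ATF4 and CHOP, had 3016, 3625 and 2456 with MRTFA, against 2836, 5445 and 3167 in control (−0.29, limma adjusted p = 0.387). Chac1, which degrades glutathione, had 682, 856 and 746 with MRTFA, against 425, 805 and 635 in control (0.33, limma adjusted p = 0.316). Sesn2, a leucine sensor that restrains mTORC1, had 1772, 2867 and 2397 with MRTFA, against 1409, 3170 and 2586 in control (0.03, 95% interval −0.68 to 0.73, limma adjusted p = 0.959). Its sign depended on the scaling, at −0.06 with library-size scaling. In all 4 genes the groups overlapped. Groups did not overlap for 4 of the 10 members, Asns and the 3 called ones, against 50.1% of all genes tested.

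Summed mammary epithelial markers were 14987 to 17027 in E0771 MRTFA libraries, against 5820 to 7901 in E0771 control libraries, a sum made almost wholly of Krt8, at 15549 ± 1021 with MRTFA and 6720 ± 1053 in control. The means of Krt7, Krt19 and Cdh1 were also higher with MRTFA, while Epcam averaged 33.5 ± 15.3 with MRTFA and 42.1 ± 23.5 in control. Acta2 rose as given above, and the part of these genes in the members' values was not tested. In bulk RNA, a change in the share of cells that express a gene and a change in RNA per cell cannot be told apart.

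With MRTFB in E0771 cells limma called 0.144% of all genes and no member, and edgeR and DESeq2 called no member either. No member had an unadjusted limma p under 0.05. Nupr1 came nearest to a shift, with 865, 973 and 883 scaled reads in MRTFB libraries, against 800.5, 816 and 793 in control libraries. Its groups did not overlap, as for 5.6% of all genes, and the difference was 0.17 (SE 0.11, limma adjusted p = 1). Ddit4 had 1086, 1315 and 1141 with MRTFB, within the control range of 947 to 1644. The 95% interval for Ddit4 ran from −0.54 to 0.41, and for Psat1 from −0.38 to 0.09, so changes of the size that MRTFA gave lie outside both.

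**Figure D2:**
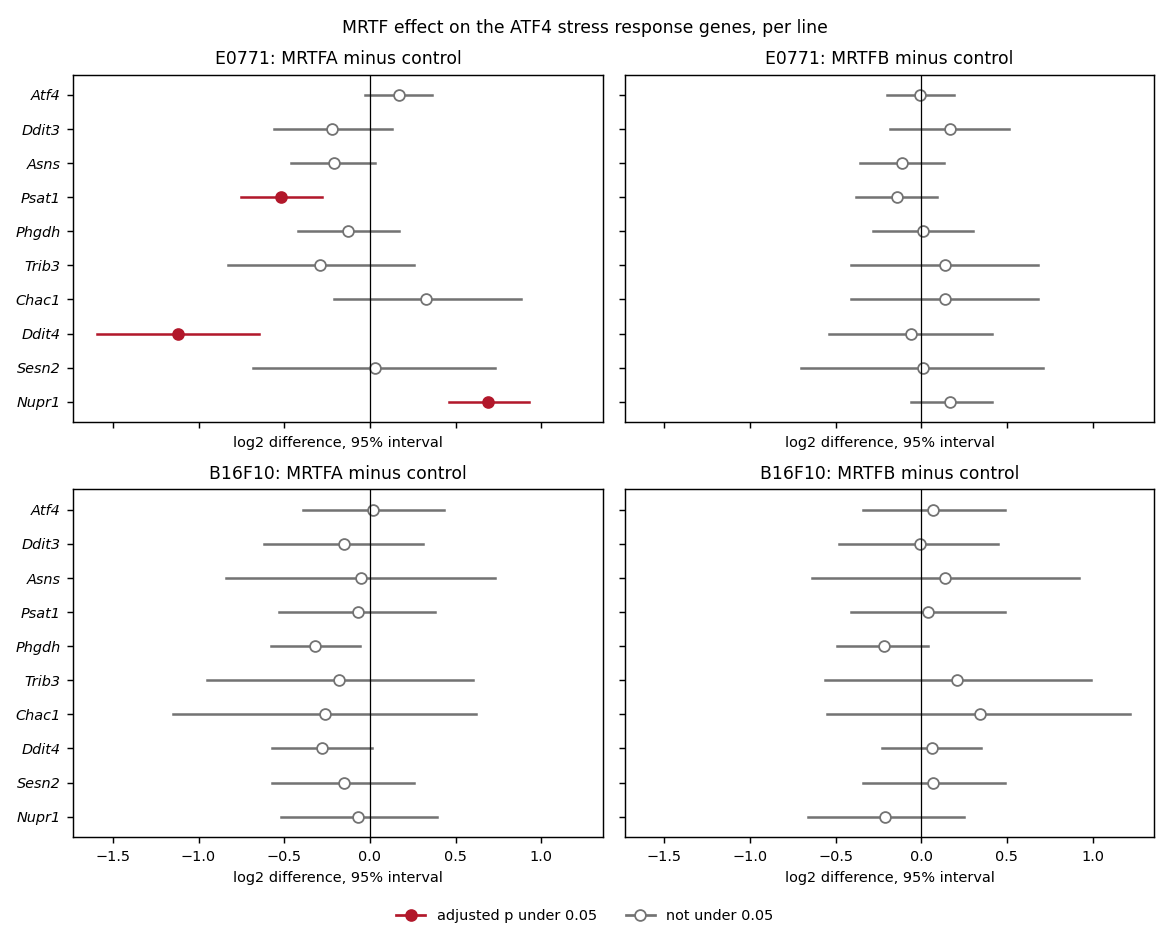
Log2 difference from the control of the same line (horizontal axis) with its 95% interval for the 10 genes, in 4 panels for MRTFA and MRTFB in E0771 and B16F10. Filled red points mark an adjusted p under 0.05, which are Ddit4, Psat1 and Nupr1 with MRTFA in E0771.

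Set directly against MRTFA in E0771, MRTFB libraries had higher Ddit4 and Psat1 and lower Nupr1. This comparison shares its MRTFA libraries with the one against control, so it is not independent of it. Here 33.6% of all genes were called, 14.5% higher and 19.1% lower. Those calls were 1916 higher and 2514 lower, which became 3006 higher and 2174 lower with library-size scaling and 2642 and 2283 with upper-quartile scaling. Ddit4 had 1181 ± 119.6 scaled reads in MRTFB libraries and 577 ± 135 in MRTFA libraries (1.06, SE 0.21, limma adjusted p = 0.00352). Nupr1 had 907 ± 58 in MRTFB libraries and 1307 ± 156 in MRTFA libraries (−0.52, SE 0.11, limma adjusted p = 0.00393). Neither pair of groups overlapped, as for 47.1% of all genes, and both calls held without each single library.

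Psat1 had 29453 ± 2896 scaled reads in MRTFB libraries and 22675 ± 758 in MRTFA libraries (0.37, SE 0.11, limma adjusted p = 0.0199). Its call was lost without replicate 1 or 2 of either group, at 0.33 to 0.38. Trib3 had 4083 ± 877 in MRTFB libraries and 3032 ± 585 in MRTFA libraries, a difference of 0.42 that missed the threshold (limma adjusted p = 0.216) and passed it with replicate number as a block (limma adjusted p = 0.0411). Ddit3 had 669.9 ± 84.8 in MRTFB libraries and 515 ± 76.1 in MRTFA libraries. Its groups did not overlap, and its difference of 0.38 (limma adjusted p = 0.084) was called with library-size or upper-quartile scaling, at 0.47 and 0.45.

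In B16F10 melanoma cells no member was called with either protein. With MRTFA, 1.55% of all genes were called, no member was called by limma, edgeR or DESeq2, and 1 member, Phgdh, had an unadjusted p under 0.05. Phgdh had 5505, 5579 and 4890 scaled reads in MRTFA libraries, against 6947, 7704 and 5454 in control libraries (−0.32, SE 0.12, limma adjusted p = 0.38). The lowest control, replicate 3, overlapped the MRTFA values, and without it Phgdh was called at −0.46 (adjusted p = 0.0321). Ddit4 had 385, 519 and 412 with MRTFA, against 498, 542 and 549 in control (−0.28, SE 0.13, limma adjusted p = 0.547). Nupr1 had 259, 356 and 308 with MRTFA, against 358, 400.2 and 227 in control (−0.07, limma adjusted p = 0.983). Psat1 had 8831, 11740 and 7263 with MRTFA, against 10258, 11777 and 7268 in control (−0.07, limma adjusted p = 0.983). These last 3 genes, which moved in E0771, overlapped with control in B16F10.

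With MRTFB in B16F10, 0.126% of all genes and no member were called, 0 members had an unadjusted p under 0.05, and edgeR and DESeq2 called 0. The differences lay between −0.22 for Phgdh and 0.34 for Chac1. Phgdh had 5438, 5649 and 5955 scaled reads in MRTFB libraries, against the control values above. MRTFB against MRTFA in B16F10 called 1.09% of all genes and no member by limma, edgeR or DESeq2, with 1 member at an unadjusted p under 0.05. That member was Ddit4, at 509.9, 547 and 602 in MRTFB libraries and 385, 519 and 412 in MRTFA libraries (0.34, SE 0.13, limma adjusted p = 0.812).

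The difference between the lines in the MRTFA effect, E0771 minus B16F10, was tested over all 18 libraries. It passed for 2 members, Nupr1 higher and Ddit4 lower in E0771, where 21.1% of all genes passed, 12.6% higher and 8.55% lower. Over all genes 1867 were higher and 1271 lower, against 1650 and 1941 with library-size scaling and 1669 and 1786 with upper-quartile scaling. For Ddit4 the effect in E0771 was lower than in B16F10 by a log2 difference of −0.84 (SE 0.27, limma adjusted p = 0.0345), and for Nupr1 it was higher by 0.76 (SE 0.24, limma adjusted p = 0.0319). Each of these calls held in 5 of the 12 fits that left out 1 library. The Ddit4 call was lost, at −0.88 to −0.63, without replicate 1 or 2 of either control, replicate 2 of B16F10 MRTFA, or replicate 1 or 3 of E0771 MRTFA. The Nupr1 call was lost, at 0.60 to 0.76, without replicate 1 or 2 of B16F10 control, 1 or 3 of E0771 control, 1 of B16F10 MRTFA, or 1 or 2 of E0771 MRTFA. For Psat1 the difference was −0.44 (SE 0.25, limma adjusted p = 0.225), and it was not called by edgeR or DESeq2 either. For MRTFB no member's effect differed between the lines by limma, edgeR or DESeq2, 0 had an unadjusted p under 0.05, and 0.114% of all genes passed.

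Genes around ATF4 were then read from lists of regulators, partners, targets and neighbouring stress branches. In E0771 MRTFA cells, 28 of 83 pathway genes tested were called, 12 higher and 16 lower, with a median log2 difference of −0.06, against −0.02 over all genes. Of all genes in the same comparison 38.4% were called, 20.3% higher and 18.1% lower, so the count over the lists together is no larger a share than that background. In the other 3 comparisons with control none of the 83 to 86 list genes was called by limma. At an unadjusted p under 0.05 there were 7 with MRTFA in B16F10, 12 with MRTFB in B16F10 and 2 with MRTFB in E0771. This threshold was not counted over all genes. In the same order edgeR called 0 in each, and DESeq2 called 1, 3 and 0, against 357, 179 and 51 over all genes. With replicate number as a block, 1 rose and 4 fell with MRTFA in B16F10. Over all 13517 genes tested there, the block called 855, 538 higher and 317 lower. With MRTFB in B16F10, 6 fell with the block, which called 603 of all genes, 220 higher and 383 lower.

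Among 7 regulators of eIF2alpha phosphorylation in E0771 MRTFA cells, 1 rose and 3 fell. Of all genes 38.4% were called there, 20.3% higher and 18.1% lower. Eif2ak3, which encodes the endoplasmic reticulum stress kinase PERK, had 746 ± 42.2 scaled reads with MRTFA and 951 ± 74.4 in control (−0.35, limma adjusted p = 0.0183). Eif2s1, which encodes eIF2alpha itself, had 15026 ± 2207 with MRTFA and 19404 ± 1651 in control (−0.38, limma adjusted p = 0.0195). Ppp1r15b, the constitutive subunit of the phosphatase that reverses the phosphorylation, had 8368 ± 1314 with MRTFA and 6446 ± 464 in control (0.37, limma adjusted p = 0.0251). The other gene that fell was Eif2ak1, the haem-regulated kinase, at −0.27 (limma adjusted p = 0.0306), named after its value was seen. With 1 library left out, the Eif2ak3 call was lost without MRTFA replicate 2 or control replicate 1 or 3, at −0.33 to −0.30. The Eif2s1 call was lost without MRTFA replicate 1 or 2 or control replicate 1 or 3, at −0.37 to −0.29. The Ppp1r15b call was lost without MRTFA replicate 2 or 3 or control replicate 1 or 2, at 0.25 to 0.37. Ppp1r15b also lost its call with upper-quartile scaling, at 0.30, and with no filter, at 0.37. Among 5 bZIP partners and relatives 1 fell, Nfe2l2, which encodes NRF2, at 2602 ± 428 with MRTFA and 3587 ± 211 in control (−0.47, limma adjusted p = 0.00898).

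The lists of known ATF4 targets other than the members had 36 genes tested in E0771 MRTFA cells, of which 2 rose and 6 fell, with a median log2 difference of −0.10, where 38.4% of all genes were called. On recovered reads edgeR called 4 of the 36 and DESeq2 called 5. No amino acid transporter of 9 was called by limma, edgeR or DESeq2, and 2 had an unadjusted p under 0.05. Of 12 aminoacyl-tRNA synthetases, which charge tRNAs with amino acids, 1 rose and 5 fell by limma, while edgeR called 3 of the 12 in all and DESeq2 called 4. Nars, the asparaginyl enzyme, had 40568 ± 3828 with MRTFA and 28842 ± 579.7 in control (0.49, limma adjusted p = 0.00154). Yars, the tyrosyl enzyme, had 4195 ± 62.7 with MRTFA and 5611 ± 260.1 in control (−0.42, limma adjusted p = 0.00159), and Lars, the leucyl enzyme, had 11323 ± 950.4 with MRTFA and 14540 ± 613 in control (−0.36, limma adjusted p = 0.00777). Genes of one family thus moved both ways. Of 11 further amino acid enzymes 1 fell, the aspartate aminotransferase Got1, with 2913 ± 242 with MRTFA and 4537 ± 289 in control (−0.64, limma adjusted p = 0.000201). Of 4 other stress outputs 1 rose, the stress cytokine Gdf15, at 510.0, 539.7 and 282 with MRTFA, against 91.6, 264 and 167 in control (1.41, SE 0.50, limma adjusted p = 0.0465). The Gdf15 call was lost with edgeR and DESeq2, with library-size scaling, with no filter, and without MRTFA replicate 1 or 2 or control replicate 1 or 3, at 1.02 to 1.45.

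Neighbouring stress branches, which share inputs with some members, also moved in both directions in E0771 MRTFA cells, where 38.4% of all genes were called. The calls over all genes were 20.3% higher and 18.1% lower. Of 14 genes of the IRE1 and ATF6 branches of the unfolded protein response 3 rose and 2 fell. Edem1, which sends misfolded glycoproteins to degradation, had 10781 ± 533 with MRTFA and 4753 ± 272 in control (1.18, limma adjusted p = 1.15e-06). Dnajc3, a co-chaperone, had 6082 ± 811 with MRTFA and 3080 ± 62 in control (0.97, limma adjusted p = 3.98e-05), while the chaperone Hyou1 had 8732 ± 399 with MRTFA and 10566 ± 423 in control (−0.28, limma adjusted p = 0.0186), a call lost without MRTFA replicate 1 or 2 or control replicate 3, at −0.29 to −0.24. Of 9 hypoxia genes 4 rose and 2 fell. Among those that rose, Car9, named after its value was seen, was near the filter limit of 10. It had 17.5 ± 1.58 with MRTFA and 8.83 ± 0.363 in control. No control library reached 10, so Car9 passed the filter only because of the MRTFA libraries. Its place among the 4 that rose is thus no support for a rise. Adm, the vasodilator peptide adrenomedullin, had 20378 ± 4700 with MRTFA and 2149 ± 386 in control (3.23, limma adjusted p = 2.81e-06), and Egln3, an oxygen-sensing hydroxylase, had 3492 ± 641 with MRTFA and 2191 ± 123 in control (0.66, limma adjusted p = 0.00315). Pdk1, a kinase that restrains pyruvate oxidation, had 3139 ± 389.7 with MRTFA and 5799 ± 743 in control (−0.88, limma adjusted p = 0.000794).

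The 2 lists tied to the other inputs of Ddit4 and Sesn2 were small. Of all genes with MRTFA in E0771, 38.4% were called, 20.3% higher and 18.1% lower. Of 4 glucocorticoid genes 1 fell, Fkbp5, a co-chaperone of the glucocorticoid receptor, with 3089 ± 181 with MRTFA and 6759 ± 729 in control (−1.13, limma adjusted p = 1.16e-05). Of 5 p53 targets 2 rose. Phlda3, an inhibitor of AKT, had 2366 ± 270.0 with MRTFA and 1205 ± 102 in control (0.97, limma adjusted p = 0.000144), and Zmat3, an RNA-binding protein, had 5852 ± 332 with MRTFA and 3512 ± 469.5 in control (0.74, limma adjusted p = 0.000444).

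Between the lines at baseline, E0771 control cells had more mRNA of 8 of the 10 members than B16F10 control cells, and less of none. Of all genes 70.2% were called in this comparison, 33.4% higher and 36.8% lower in E0771, so most genes differed between the lines, and the members were higher more often than genes in general, which was not tested. The median log2 difference was 1.29 over the members and −0.04 over all genes. These are 2 different lines and cell types, each in 3 libraries, and the line cannot be told apart from any difference in how its cultures were handled.

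**Figure D3:**
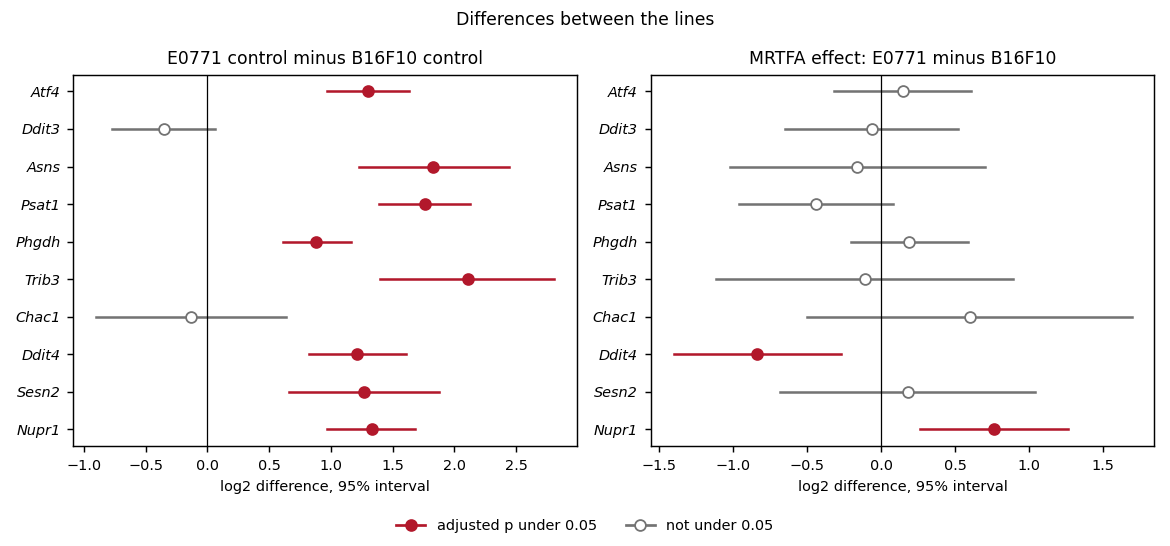
Log2 differences between the lines (horizontal axis) with 95% intervals for the 10 genes, on the left E0771 control minus B16F10 control and on the right the MRTFA effect in E0771 minus that in B16F10. Filled red points mark an adjusted p under 0.05: 8 genes on the left, and Ddit4 and Nupr1 on the right.

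Among the factors, Atf4 had 29430, 29029 and 27376 scaled reads in E0771 control libraries, against 11213, 14665 and 9504 in B16F10 control libraries. The groups were far apart (1.30, SE 0.15, limma adjusted p = 9.45e-07), a ratio of means of 2.43. Ddit3 did not follow it. It had 544, 696 and 554 in E0771 control libraries, against 634, 760.5 and 909.6 in B16F10 control libraries, which overlapped (−0.35, 95% interval −0.77 to 0.06, limma adjusted p = 0.116).

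All 3 amino acid enzymes were higher in E0771. Asns had 30854, 24739 and 24099 scaled reads in E0771 control libraries, against 9159, 10165 and 4370 in B16F10 control libraries (1.83, SE 0.29, limma adjusted p = 2.27e-05). Psat1 had 36416, 31929 and 29243 in E0771, against 10258, 11777 and 7268 in B16F10 (1.76, SE 0.17, limma adjusted p = 9.58e-08). Phgdh had the smallest called difference of the members, with 11095, 14030 and 11809 in E0771, against 6947, 7704 and 5454 in B16F10 (0.88, SE 0.13, limma adjusted p = 1.37e-05). No E0771 value of these enzymes overlapped a B16F10 value, as for 72.3% of all genes.

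Of the feedback and output genes, Trib3 differed most, with 2836, 5445 and 3167 scaled reads in E0771 control libraries, against 729, 1366 and 609 in B16F10 control libraries (2.11, SE 0.33, limma adjusted p = 2.51e-05), a ratio of means of 4.23. Ddit4 averaged 1261 ± 354 in E0771 and 529.8 ± 27.5 in B16F10 (1.21, limma adjusted p = 2.06e-05), Sesn2 2389 ± 897 in E0771 and 948 ± 189 in B16F10 (1.27, limma adjusted p = 0.000834), and Nupr1 803 ± 11.7 in E0771 and 328 ± 90.2 in B16F10 (1.33, limma adjusted p = 2.02e-06). Chac1 was the exception, with 425, 805 and 635 in E0771, against 599, 1100 and 431 in B16F10. Its groups overlapped widely (−0.13, 95% interval −0.90 to 0.64, limma adjusted p = 0.771), so a rise in E0771 of the size of that of Atf4 or Trib3 lies outside its interval. Ddit3 and Chac1 were thus the members not called higher in E0771. All 8 calls held under each alternative and without each single library.

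The 6 paralogs of members differed between the lines in both directions. In E0771 control cells 2 of the 6 were higher and 4 lower than in B16F10 control cells. Of all genes 70.2% were called in this comparison, 33.4% higher and 36.8% lower. Trib1, a pseudokinase related to Trib3, had 1973 ± 95.2 scaled reads in E0771 and 313 ± 34.7 in B16F10 (2.66, limma adjusted p = 2.74e-13). Trib2 had 3.02, 4.01 and 0.934 in E0771 control libraries, against 74.1, 84.7 and 21 in B16F10 control libraries (limma adjusted p = 4.24e-06). Chac2, the relative of Chac1, had 695 ± 143 in E0771 and 298 ± 37.5 in B16F10 (1.21, limma adjusted p = 1.52e-06), where Chac1 was not called. Sesn1 had 425 ± 30.3 in E0771 and 562 ± 27.9 in B16F10 (−0.40, limma adjusted p = 0.00791). Sesn3 had 0, 0 and 0.934 scaled reads in E0771 control libraries, against 414, 377 and 406 in B16F10 control libraries (limma adjusted p = 1.62e-14). Ddit4l, the relative of Ddit4, had 0, 1 and 0 in E0771 control libraries, against 146, 123 and 185 in B16F10 control libraries (limma adjusted p = 4.21e-10). Trib2, Sesn3 and Ddit4l were under the filter limit of 10 in every E0771 library. They passed the filter only through B16F10, so they could be called only as lower in E0771. The count of lower paralogs can therefore not be read against the share over all genes. Apart from these genes, Sesn2 was higher in E0771 while its relative Sesn1 was lower.

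With MRTFA in E0771, where 38.4% of all genes tested were called, Sesn3, Trib2 and Ddit4l were too low to be tested. Of the other 3 paralogs, Chac2 fell, with 461 ± 59.5 scaled reads with MRTFA and 695 ± 143 in control (−0.58, limma adjusted p = 0.0164), a call lost without MRTFA replicate 1 or 2 or control replicate 1, at −0.53 to −0.42. Sesn1 had 414 ± 54.8 with MRTFA and 425 ± 30.3 in control (−0.04, limma adjusted p = 0.837), and Trib1 had 2191 ± 161 with MRTFA and 1973 ± 95.2 in control (0.15, limma adjusted p = 0.234).

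The wider ATF4 target lists were also mostly higher in E0771 control cells. Of 36 tested genes 26 were higher and 4 lower, with a median log2 difference of 0.73, against −0.04 over all genes, of which 70.2% were called. By list, 7 of 9 transporters, 10 of 12 synthetases and 8 of 11 amino acid enzymes were higher, with no transporter and no synthetase lower. The 4 lower genes, named after their values were seen, were the transsulfuration enzymes Cth (−6.28) and Cbs (−2.18) and the autophagy genes Map1lc3b (−1.06) and Sqstm1 (−0.76). In E0771 control libraries Cth had 7.05, 3 and 9.34 scaled reads and Cbs 8.06, 9.01 and 17.8. These values are near the filter limit of 10, so the sizes of the Cth and Cbs differences are uncertain. Of the bZIP list 3 of 5 were higher and 1 lower. All 5 p53 targets were lower and all 4 glucocorticoid genes higher in E0771, while the eIF2alpha regulators split into 3 higher and 2 lower and the IRE1 and ATF6 branch into 3 higher and 6 lower. Of 9 hypoxia genes 6 were higher and 2 lower, with a median log2 difference of 1.29. Over all genes 33.4% were called higher and 36.8% lower.

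The order of the members by level was similar in both lines at the top. Levels are given here as scaled reads per kb of merged exons. In E0771 control cells the order was Atf4 (12134), Asns (9713), Psat1 (7647), Phgdh (4952) and Trib3 (1796), each apart from the next in all libraries. Ddit4 (719), Sesn2 (687), Chac1 (379.9), Ddit3 (349) and Nupr1 (319.5) followed, and each of these neighbours overlapped. In B16F10 control cells Atf4 (5002) also led, ahead of Asns (2888), Phgdh (2696) and Psat1 (2296), where each neighbour overlapped, and these 3 stood apart from the rest. Ddit3 (448), Chac1 (434), Trib3 (424), Ddit4 (302) and Sesn2 (273) came next with each neighbour overlapping, and Nupr1 (131) was last and apart. Trib3 stood above Ddit3 and Chac1 in every E0771 control library, and its range overlapped theirs in B16F10.

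Several members varied widely between replicates of one group, and in B16F10 this variation followed the replicate number. Replicate 2 was the highest of its group in all 3 B16F10 groups for 6 members, namely Atf4, Asns, Psat1, Trib3, Chac1 and Sesn2. Replicate 3 was the lowest in all 3 groups for Asns and Psat1. Chac1 in B16F10 had 922 in replicate 2 with MRTFA, 1200 with MRTFB and 1100 in control, while replicates 1 and 3 of the 3 groups lay between 401 and 819. In E0771, replicate 2 was highest in all 3 groups for Ddit4, Trib3 and Nupr1, and replicate 1 lowest for Chac1 and Sesn2.

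**Figure D4:**
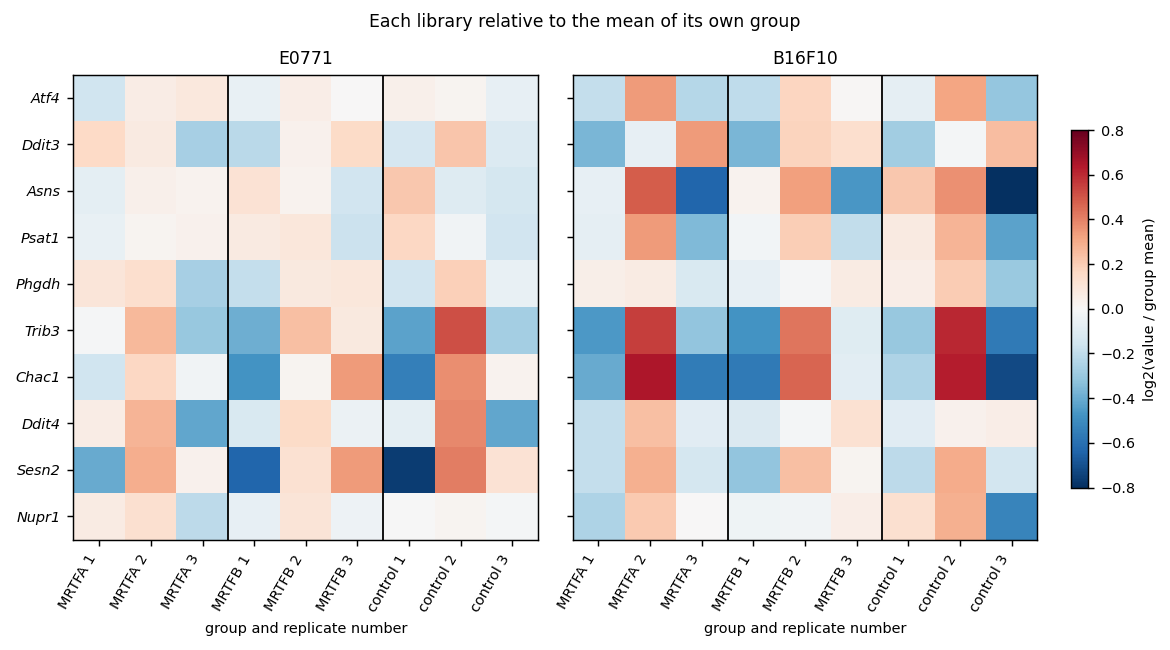
Log2 of each library's value over the mean of its own group (colour, red above and blue below) for the 10 genes (rows) in the 9 libraries of each line (columns). In B16F10 the columns of replicate 2 are red for 6 genes in every group.

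The coefficient of variation in B16F10 control cells was 49% for Chac1, 45.1% for Trib3 and 39.2% for Asns, against 5.19% for Ddit4. The labels do not say what the replicate numbers stand for. Across all tested genes, deviations of equal-numbered B16F10 libraries from their group means correlated at 0.353 to 0.567 between MRTFA and control, so the shared pattern was not limited to these genes. With replicate number as a block no member was called in B16F10 either.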

How the data were processed

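RNA of 18 libraries was measured, 3 in each of 6 groups taken from the line, vector and replicate number in the labels. Per the submitters' processing notes the tools were cutadapt 1.6, STAR 2.5.0a, HTSeq 0.5.3 and DESeq on mm10; no source used here gives the annotation release, strandedness or counting mode. Each deposited value is a signal, the reads of a gene that the authors divided by a DESeq size factor of the library. Within 0.001 read, 100.0% of values were whole reads, which allowed count tests as alternatives. Depth was 27607055 to 37116655 recovered reads per library, and without molecular identifiers intervals on counts would cover counting error only. The table holds genes with at least 15 reads summed over libraries. No pair of libraries in a group was a duplicate (chi-square per degree of freedom at least 11.7).

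The filter kept genes reaching 10 in 3 or more of the fitted libraries. The test was limma-trend (limma 3.58.1) on log2(value + 1) with group means only, and two-sided p-values were adjusted by Benjamini-Hochberg over all genes tested. Each line's 9 libraries were fitted together, and all 18 for comparisons between the lines. The comparisons with control within each line were also run on simulated data with independent replicates. The simulation did not cover variation shared by equal-numbered libraries, MRTFB against MRTFA, or comparisons between the lines. The alternatives were library-size and upper-quartile scaling, edgeR 4.0.16 and DESeq2 1.42.0 on recovered reads, a pseudocount of 10, no filter, a minimum of 50, replicate number as a block, and each library left out. The members and lists were chosen with earlier results of these data known.

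The genes named are the members, their listed paralogs, the transgenes' own genes and Acta2, and from each other list up to 3 called genes of smallest adjusted p in each comparison with control; exceptions are marked. The main fits were unpaired in every comparison, and replicate number entered only through the block given as an alternative. Equal replicate numbers were read as pairs where every equal-numbered pair of libraries deviated together from its group means by a correlation over 0.1. The numbers come from the labels, which do not say what they stand for. This held for MRTFA (0.353 to 0.567) and MRTFB (0.382 to 0.486) in B16F10, for MRTFB in E0771 (0.459 to 0.553), and for MRTFB against MRTFA in both lines (0.403 to 0.634 and 0.134 to 0.474). It did not hold for MRTFA in E0771 (0.084 to 0.525), the MRTFA line difference (0.058 to 0.470 within lines) or the controls across lines (0.084 to 0.172). Of the MRTFB line difference, pairs within lines had 0.298 to 0.456. Positions come from GENCODE M21 and promoters from RefSeq, both on GRCm38. The cell markers were 5 lists: leukocyte markers, 1 of 6 in the table, summed to at most 15.7 scaled reads, endothelial to at most 26.5 and fibroblast to 602 to 7682.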

Additional observations from a re-analysis of the deposited data

Results flagged for a closer look

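The MRTFA effect on Ddit4, taken as E0771 minus B16F10, differed by −0.84 on the log2 scale. Ddit4 averaged 577 ± 135 scaled reads with MRTFA and 1261 ± 354 in control in E0771, and 439 ± 71 with MRTFA and 529.8 ± 27.5 in control in B16F10 (SD, n = 3 each). Both lines had the lower mean with MRTFA, and limma's test of the difference gave an adjusted p of 0.0345. The same test for Nupr1 gave 0.76 (limma adjusted p = 0.0319), with 1307 ± 156 with MRTFA and 803 ± 11.7 in control in E0771, and 308 ± 48.4 with MRTFA and 328 ± 90.2 in control in B16F10. Each was called in 5 of 12 fits with 1 library left out. Mkl1 averaged 13728 ± 2454 with MRTFA and 1349 ± 202 in control in E0771, and 1205 ± 266 with MRTFA and 1015 ± 83.3 in control in B16F10; the part of transgene level in these differences was not tested.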

How the results depend on the processing

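The number of members called was the same under every scaling, count test, pseudocount and filter for MRTFB in both lines (0), MRTFA in B16F10 (0), MRTFB against MRTFA in B16F10 (0), the MRTFB line difference (0), the MRTFA line difference (2) and the control lines (8). It was 3 for MRTFA in E0771, except 4 with library-size scaling, and 3 for MRTFB against MRTFA in E0771, except 4 with library-size or upper-quartile scaling or the replicate block. With 1 library left out the counts were 0 to 1 for MRTFA in B16F10, 3 to 4 for MRTFA in E0771, 2 to 3 for MRTFB against MRTFA in E0771 and 0 to 2 for the MRTFA line difference; the cause was not tested. With the replicate block, where numbers were not read as pairs, 3 members were called for MRTFA in E0771 and 8 between the controls, and Psat1 passed in the MRTFA line difference (adjusted p = 0.0135). All E0771 control libraries were closest to their own number, and 2 of 3 E0771 MRTFA libraries. Besides this Psat1 call, the block changed 1 member call, that of Trib3 for MRTFB against MRTFA in E0771 (limma adjusted p = 0.0411 with the block). Over all genes the block called 6405 of 13189 for MRTFA in E0771, 3237 higher and 3168 lower. Without the block 2677 were higher and 2387 lower. Among the pathway lists for MRTFA in E0771, the block called 3 of 9 amino acid transporters lower (0 without it), 3 higher and 11 lower of 36 ATF4 targets (2 and 6 without it), 2 lower of 5 bZIP genes (1), 2 lower of 11 further amino acid enzymes (1) and 2 higher of 4 other stress outputs (1). It also called 2 higher of 7 eIF2alpha regulators (1), 6 lower of 12 synthetases (5) and 3 lower of 14 IRE1 and ATF6 branch genes (2).

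Counts over all genes that moved by over 1.5 times were, for MRTFA in B16F10 (209), 357 with DESeq2, 107 with a minimum of 50 and 855 with the block; for MRTFB in B16F10 (17), 6 with library-size scaling, 179 with DESeq2, 5 with a minimum of 50 and 603 with the block; for MRTFB in E0771 (19), 51 with DESeq2, 3 with no filter and 33 with the block; for MRTFB against MRTFA in B16F10 (148), 71 with a minimum of 50 and 359 with the block; for the MRTFA line difference (3138), 5165 with the block; and for the MRTFB line difference (17), 41 with DESeq2, 32 with a pseudocount of 10 and 81 with the block.

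Signs turned only for members that were not called. Sesn2 was −0.06 and −0.04 for MRTFA in E0771 with library-size and upper-quartile scaling, −0.02 and −0.01 for MRTFB in E0771 with edgeR and DESeq2, and 0.07 and 0.05 for MRTFB against MRTFA in E0771 with library-size and upper-quartile scaling, and Atf4 was 0.00 for MRTFB in E0771 with library-size scaling. With 1 library left out, the log2 differences that crossed 0 had these ranges.
For MRTFA in B16F10 they were Atf4 −0.16 to 0.19, Ddit3 −0.34 to 0.01, Asns −0.44 to 0.23, Psat1 −0.27 to 0.09, Trib3 −0.49 to 0.17, Chac1 −0.64 to 0.11, Sesn2 −0.30 to 0.00 and Nupr1 −0.31 to 0.10. For MRTFB in B16F10 they were Atf4 −0.07 to 0.24, Ddit3 −0.14 to 0.16, Ddit4 0.00 to 0.12, Asns −0.24 to 0.36, Psat1 −0.16 to 0.19, Trib3 −0.03 to 0.56 and Sesn2 −0.05 to 0.23. For MRTFA in E0771 they were Phgdh −0.20 to 0.00, Sesn2 −0.32 to 0.27 and Sesn1 −0.13 to 0.06. For MRTFB in E0771 they were Atf4 −0.04 to 0.02, Ddit4 −0.25 to 0.15, Asns −0.18 to 0.00, Phgdh −0.06 to 0.11, Trib3 −0.05 to 0.42, Chac1 −0.11 to 0.35 and Sesn2 −0.33 to 0.29. For MRTFB against MRTFA in B16F10 they were Atf4 −0.05 to 0.24, Ddit3 −0.03 to 0.32, Asns −0.09 to 0.47 and Psat1 −0.05 to 0.30. For MRTFB against MRTFA in E0771 they were Chac1 −0.39 to 0.02 and Sesn2 −0.22 to 0.27. In the MRTFA line difference they were Atf4 −0.02 to 0.33, Ddit3 −0.23 to 0.12, Asns −0.44 to 0.22, Trib3 −0.46 to 0.20 and Sesn2 −0.16 to 0.42. In the MRTFB line difference they were Atf4 −0.25 to 0.06, Ddit4 −0.31 to 0.09, Asns −0.48 to 0.13, Psat1 −0.33 to 0.02, Trib3 −0.42 to 0.21, Chac1 −0.57 to 0.10 and Sesn2 −0.41 to 0.22. Between the controls they were Chac1 −0.43 to 0.24.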
